A study of Homo sapiens with 4 samples.

Results

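DEAD-box RNA helicases are enzymes that use ATP to pull short RNA duplexes apart and to strip proteins from RNA. They are named after a motif of 4 amino acids, D-E-A-D in single-letter code, which sits in the site where ATP is bound and split. Members of the family act at nearly every step in the life of an RNA, among them splicing, export to the cytoplasm, the start of translation, mRNA decay and the assembly of ribosomes in the nucleolus. A fixed list of 33 human genes of the family (30 DDX genes and the 3 EIF4A genes) was taken by symbol from the 69222 gene identifiers in the count files, and all 33 were found. Of these, 32 had enough counts to be tested beside the other genes, 20319 in all. DDX39B did not pass the filter on low counts.

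Poly(A) RNA was sequenced from HEK293T, a human embryonic kidney line. One group, shRPRD1B, had been transduced with a lentivirus carrying a short hairpin RNA against RPRD1B, whose product binds the C-terminal domain of RNA polymerase II. The other group, shCtrl, had received a lentivirus with a control hairpin, and each group held 2 libraries. The hairpin sequences and the time between transduction and harvest are not given in the labels, nor is it stated that replicates were separate cultures. The p-values may therefore rest on technical spread between these libraries alone.

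The libraries held 65572391 and 54722140 counts in shRPRD1B 1 and 2, against 47732913 and 48494258 in shCtrl 1 and 2. RPRD1B itself stood at 27.2 and 35.5 CPM (a count scaled by its library’s TMM-adjusted total) in shRPRD1B, against 50.4 and 50.1 CPM in shCtrl, and both shRPRD1B libraries lay below both shCtrl libraries. Its log2 fold change was -0.68 ± 0.16 (SE), with a p of 0.448 by edgeR's quasi-likelihood test, adjusted over all genes tested by the Benjamini-Hochberg method. The 7 genes listed as HEK293T features summed to 557 and 426 CPM in shRPRD1B, against 526 and 516 CPM in shCtrl. Their fold changes were positive for 2 and negative for 5. Of these genes, VIM stood at 212 and 162 CPM in shRPRD1B, against 196 and 195 CPM in shCtrl. INA was higher in both shRPRD1B libraries (37.1 and 44.3 CPM, against 23.2 and 26.8 CPM). KRT8 was lower in both (22.9 and 6.46 CPM, against 27.1 and 24.9 CPM). Of markers of other cells, PTPRC of leukocytes stayed at or under 0.0305 CPM and COL1A2 of fibroblasts was at 0 in all 4 libraries. COL1A1 of fibroblasts was present, at 20.1 and 19.4 CPM in shRPRD1B, against 32.9 and 27.3 CPM in shCtrl. The 6 neuron markers summed to 27.8 and 23.7 CPM in shRPRD1B, against 17.0 and 17.0 CPM in shCtrl, with DCX at 0 in 3 libraries. The 6 fibroblast markers summed to 24.5 and 22.2 CPM in shRPRD1B, against 38.0 and 33.6 CPM in shCtrl, and the 6 leukocyte markers to 4.20 and 2.61 CPM, against 4.22 and 4.19 CPM. The part of these differences in the results that follow was not tested.

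The motif that names the family was read from 1 coding transcript per gene (GENCODE 29, GRCh38). Codons for D-E-A-D were found in 28 of the 33 genes. DDX39A and DDX39B have codons for D-E-C-D, DDX21 and DDX50 for D-E-V-D, and DDX52 for D-E-S-D. The genes shown are the called gene DDX24, the close paralogues and the variant motifs, and DDX49 and DDX28, which came next to DDX24 in the test. Each sequence is the coding strand, 5′ to 3′, with the 12 bases of the motif in capitals and 15 bases on each side.
DDX24: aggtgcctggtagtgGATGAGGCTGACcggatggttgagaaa
DDX49: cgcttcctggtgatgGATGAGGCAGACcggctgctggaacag
DDX28: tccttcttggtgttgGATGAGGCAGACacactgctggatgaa
EIF4A1: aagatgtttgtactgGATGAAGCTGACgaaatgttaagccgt
EIF4A2: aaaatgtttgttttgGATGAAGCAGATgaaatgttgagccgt
EIF4A3: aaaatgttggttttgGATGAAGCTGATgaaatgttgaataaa
DDX19A: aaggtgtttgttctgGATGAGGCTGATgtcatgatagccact
DDX19B: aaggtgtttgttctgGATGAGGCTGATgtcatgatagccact
DDX39A: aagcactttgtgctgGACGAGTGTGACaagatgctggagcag
DDX39B: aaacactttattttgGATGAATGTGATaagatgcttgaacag
DDX21: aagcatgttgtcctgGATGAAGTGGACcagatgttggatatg
DDX50: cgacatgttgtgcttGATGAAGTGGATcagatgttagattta
DDX52: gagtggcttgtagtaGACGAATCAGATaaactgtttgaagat
The 12 bases were spelled in 16 ways across the 33 genes, and in 11 ways across the 28 with D-E-A-D. The windows of DDX19A and DDX19B are the same in every base. Over their whole coding sequences these paralogues were 95.3% identical, with a longest shared run of 318 bases, so reads of one can match the other. The other pairs were less alike: 80.0% for DDX39A and DDX39B, 76.6% for EIF4A1 and EIF4A2, 69.5% for DDX21 and DDX50, and 68.4% for DDX5 and DDX17, with longest shared runs of 20 to 26 bases. How reads that map to several places were counted is not given in the sources used here.

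DDX24 fell in shRPRD1B, to 0.0985 times its shCtrl level, and no other tested DEAD-box gene passed the threshold, an adjusted p under 0.05. Of the 32 tested members, edgeR called 1 lower in shRPRD1B and none higher, where 0.0689% of all genes tested were called in either direction, 0.0295% higher and 0.0394% lower. At an unadjusted p under 0.05 there were 3 lower members, DDX24, DDX28 and DDX49, and no higher one, beside 3.94% of all genes lower, 3.55% higher and 7.49% in either direction. DESeq2 also called DDX24 alone among the members, where it called 1.18% of all genes. Fitted log2 fold changes were positive for 50.5% of all genes tested and for 56.2% of those of at least 16 CPM. Among the members they were positive for 22 (68.8%) and negative for 10, ranging from -3.35 to 0.36. Their median was 0.07 on the log2 scale, beside 0.00 for all genes tested and 0.03 for those of at least 16 CPM, and it was -0.03 without shRPRD1B 2 and 0.20 without shRPRD1B 1. In 6 members both knockdown libraries stood above the controls (20.3% of all genes tested did) and in 6 members below them (20.6% did), and the groups overlapped for the other 20 tested members. Together that was 37.5% of the members on one side, beside 40.9% of all genes tested. In bulk RNA, fewer cells with a transcript and less of it per cell cannot be told apart.

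**Figure D1:**
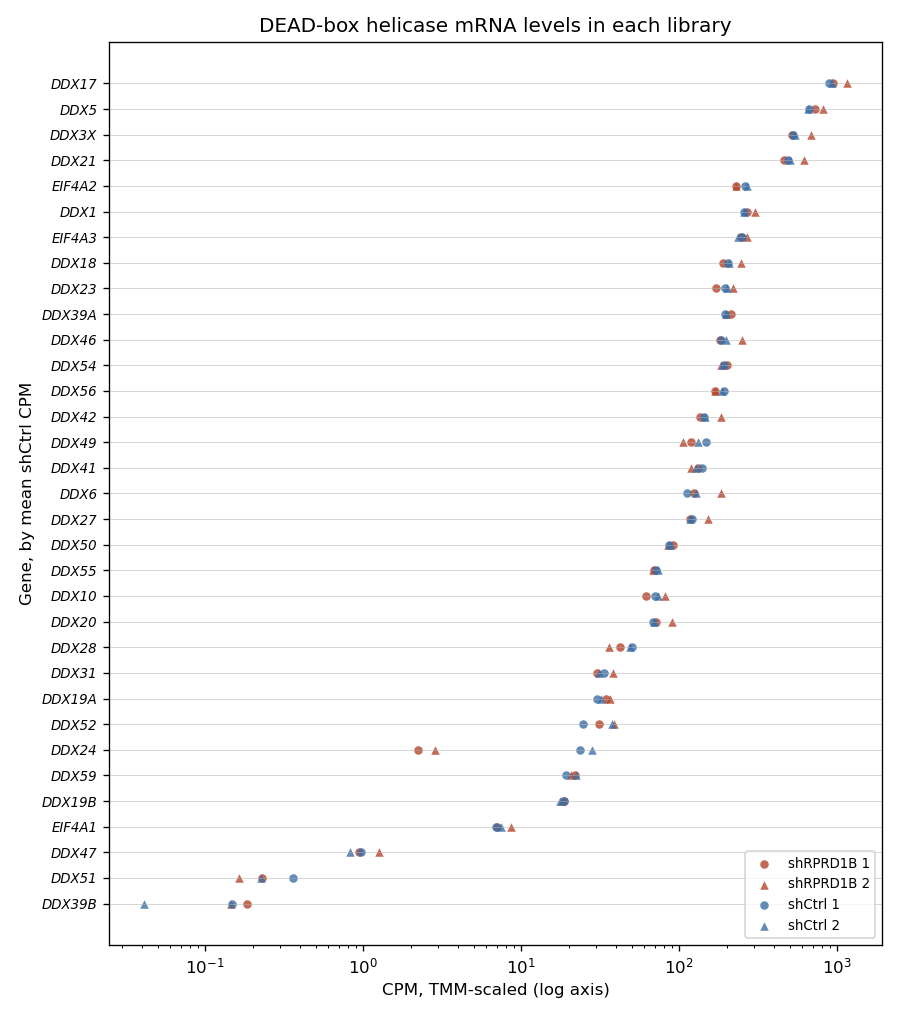
CPM (log axis) of each of the 33 genes in the 4 libraries, ordered by the shCtrl mean; red marks are shRPRD1B and blue marks shCtrl, circles replicate 1 and triangles replicate 2. DDX24 is the gene whose red marks stand far left of its blue marks, at 2.23 and 2.86 CPM in shRPRD1B, against 23.5 and 28.2 CPM in shCtrl.

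Per kilobase of transcript, which allows genes to be ranked, the shCtrl levels spanned DDX5 at 258 CPM per kb to DDX39B at 0.0443 CPM per kb. DDX5 was followed by DDX17 (190.3 CPM per kb), EIF4A3 (140.4), EIF4A2 (137.8), DDX39A (134) and DDX21 (105). At the other end, DDX24 (4.61 CPM per kb), EIF4A1 (4.11), DDX47 (0.493) and DDX51 (0.0620) stood above DDX39B. These are levels as counted, and that of EIF4A1 is uncertain. Whether the low counts of DDX47, DDX51 and DDX39B reflect low transcript levels was not tested. In shRPRD1B, DDX24 was at 0.454 CPM per kb, which put it under DDX47 at 0.607 CPM per kb. That order rests on the transcripts used, of 5612 and 1817 bases. Without scaling to length DDX24 was the higher, with means of 2.55 and 1.10 CPM in shRPRD1B. In total the 33 genes held 5632 and 6614 CPM in shRPRD1B, against 5680 and 5751 CPM in shCtrl.

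DDX24, a nucleolar helicase of large ribosomal subunit assembly, stood 10.2 times lower in the knockdown libraries than in the controls (ENSG00000089737.18, minus strand of chromosome 14, 94048291 to 94081245 in GENCODE 29). Its counts were 146 and 157 in shRPRD1B 1 and 2, against 1114 and 1372 in shCtrl 1 and 2. Scaled to library size, DDX24 had 2.23 and 2.86 CPM in shRPRD1B, against 23.5 and 28.2 CPM in shCtrl. Both knockdown values lay far under both control values. The libraries of shRPRD1B differed 1.285-fold and those of shCtrl 1.199-fold. The group means were 2.55 ± 0.450 CPM in shRPRD1B and 25.9 ± 3.31 CPM in shCtrl (SD, n = 2 each). Some other genes, named after their values were seen, differed far more within groups. LSM14A stood at 1.43 and 58.7 CPM in shRPRD1B, against 24.3 and 1.62 CPM in shCtrl. SKIC2 stood at 15.8 and 1.59 CPM in shRPRD1B, against 0.0422 and 1.85 CPM in shCtrl. Whether such variation has a part in the DDX24 difference was not tested. The log2 fold change of DDX24 was -3.35 ± 0.21 (SE), with a 95% interval from -3.87 to -2.83. Its Benjamini-Hochberg adjusted p was 0.0310 with edgeR's quasi-likelihood test and 1.62e-41 with DESeq2, whereas limma voom (0.0617) and edgeR with a stricter filter, 5 CPM or more in 2 libraries, (0.0552) did not call it. Leaving out each library in turn, the value lay between -3.53 and -3.17 and was called each time.

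The start of DDX24 lies close to that of another gene. In RefSeq (GRCh38.p14) DDX24 runs on the minus strand of chromosome 14 from 94048287 to 94081202, and IFI27L1, a gene of the IFI27 family, starts 108 bases from it, pointing the other way. The window from 250 bases before to 50 bases after the DDX24 start is shown because it holds the stretch between both starts (chr14:94081153-94081452, minus strand, 5′ to 3′). Capitals mark CCAAT and the GC box GGGCGG, searched on both strands.
DDX24 promoter: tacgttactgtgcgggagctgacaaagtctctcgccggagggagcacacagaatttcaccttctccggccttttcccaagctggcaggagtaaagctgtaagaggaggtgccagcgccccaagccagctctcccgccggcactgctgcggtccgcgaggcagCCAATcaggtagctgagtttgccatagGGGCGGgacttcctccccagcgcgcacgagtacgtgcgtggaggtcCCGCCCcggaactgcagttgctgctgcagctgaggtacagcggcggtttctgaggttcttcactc
Of the 30 members with a promoter in the RefSeq table, 11 held CCAAT (36.7%, beside 34.6% of 35116 promoters of the same length) and 16 held GGGCGG (53.3%, beside 45.0%). The ETS core CCGGAAGT was in 7 members (23.3%, beside 4.1% of all promoters), among them DDX5, DDX21 and DDX56, and not in the DDX24 window. The E-box CACGTG was in 4 members (13.3%, beside 7.3%), and TATAAA in 2 (6.7%, beside 11.5%). The shares over all promoters were not limited to genes tested here, and no share over tested genes was computed. A match to these letters is a description and not a binding site.

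Within 250 kb of DDX24, 10 other protein-coding genes are annotated and 8 of them were under 1 CPM. The other 2 were tested, and they had log2 fold changes of opposite sign. IFI27L1 had 1.54 and 1.55 CPM in shRPRD1B, against 0.570 and 1.07 CPM in shCtrl (log2 fold change 0.91 ± 0.36; adjusted p = 0.665 by edgeR's quasi-likelihood test, Benjamini-Hochberg adjusted). PPP4R4, a subunit of a protein phosphatase 64883 bases away, had 1.89 and 0.766 CPM in shRPRD1B, against 3.86 and 2.88 CPM in shCtrl (log2 fold change -1.31 ± 0.43; adjusted p = 0.619 in the same test). The groups did not overlap for either gene, as for 40.9% of all genes tested, and neither passed the threshold. OTUB2, whose exons overlap 640 bases of those of DDX24, stayed at or under 0.232 CPM in every library.

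**Figure D2:**
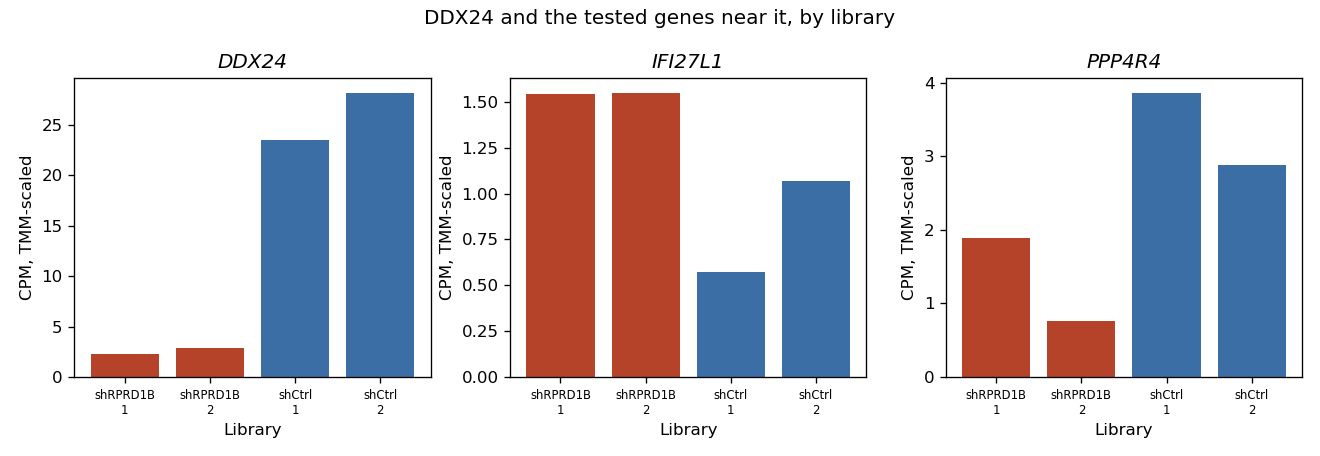
CPM of DDX24 and of the 2 tested genes within 250 kb of it, by library, each panel with its own axis from 0; red bars are shRPRD1B and blue bars shCtrl. DDX24 is at 2.23 and 2.86 CPM in shRPRD1B, against 23.5 and 28.2 CPM in shCtrl, while IFI27L1 is higher and PPP4R4 lower in both shRPRD1B libraries, without passing the threshold.

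The helicases of translation initiation showed no called difference. EIF4A1 and EIF4A2 are the alternative helicases of the eIF4F complex, which unwinds the 5′ end of an mRNA, and DDX3X helps mRNAs with structured 5′ ends. EIF4A2 (ENSG00000156976.17, chromosome 3, 186783205 to 186789900) had 229.0 and 228.5 CPM in shRPRD1B, against 261 and 268 CPM in shCtrl. The knockdown libraries were nearly equal to each other and both lay under the controls. The log2 fold change of EIF4A2 was -0.21 ± 0.10, with a 95% interval from -0.46 to 0.05 and an adjusted p of 0.696 (edgeR's quasi-likelihood test, Benjamini-Hochberg adjusted). DDX3X had 515 and 683 CPM in shRPRD1B, against 527 and 541 CPM in shCtrl, so that shRPRD1B 2 alone stood above the controls. Its log2 fold change was 0.17 ± 0.16, and -0.05 without shRPRD1B 2. Among 9 other eIF4F components and regulators, all tested, 7 fold changes were positive, 2 were negative and none was called, with a median of 0.05. The smallest p among them belonged to EIF4EBP1, which binds the cap-binding protein EIF4E, with 238 and 149 CPM in shRPRD1B, against 253 and 242 CPM in shCtrl (log2 fold change -0.35 ± 0.22). EIF4G3, an eIF4F scaffold, had a log2 fold change of 0.26 ± 0.19 and EIF4EBP2 of 0.11 ± 0.15.

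EIF4A1 was counted far under EIF4A2, and its gene overlaps or resembles other counted genes. It had 7.02 and 8.65 CPM in shRPRD1B, against 6.99 and 7.44 CPM in shCtrl (log2 fold change 0.12 ± 0.19, and -0.04 without shRPRD1B 2). The readthrough gene SENP3-EIF4A1, whose exons share 1586 bases with it, added little: the sum of both was 7.68 and 9.54 CPM in shRPRD1B, against 7.43 and 7.95 CPM in shCtrl (log2 fold change 0.16 ± 0.19). The 13 named EIF4A1 pseudogenes together held more than the gene, 24.5 and 25.1 CPM in shRPRD1B, against 27.8 and 26.6 CPM in shCtrl. Nearly all of that was EIF4A1P10, a name picked after the values were seen, with 22.0 and 23.0 CPM in shRPRD1B, against 25.0 and 24.2 CPM in shCtrl (log2 fold change -0.13 ± 0.13; adjusted p = 0.804 by edgeR's quasi-likelihood test, Benjamini-Hochberg adjusted). The pseudogenes thus came to 377% of EIF4A1 in shCtrl, whereas those of the other members came to at most 0.741% of their parent gene. The level of EIF4A1 given here is therefore uncertain. Summed with EIF4A2, it gave 236 and 237 CPM in shRPRD1B, against 268 and 275 CPM in shCtrl (log2 fold change -0.20 ± 0.10).

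EIF4A3, the helicase that clamps the exon junction complex onto spliced mRNA, had 247 and 269 CPM in shRPRD1B, against 252 and 235 CPM in shCtrl (log2 fold change 0.08 ± 0.11). Its 7 partners were all tested and none was called, with 5 positive and 2 negative fold changes and a median of 0.08. RBM8A, a core subunit of the complex, had the smallest p among them (log2 fold change 0.19 ± 0.20). Of the 4 helicases of pre-mRNA splicing, DDX46 and DDX42 had positive fold changes and DDX23 and DDX41 negative ones, and none was called. DDX46, which acts with the U2 snRNP, had 181 and 248 CPM in shRPRD1B, against 184 and 199 CPM in shCtrl. DDX42, a partner of SF3B1, had 136 and 185 CPM in shRPRD1B, against 144 and 145 CPM in shCtrl. DDX23, a tri-snRNP helicase, had 172 and 220.1 CPM in shRPRD1B, against 197 and 200.3 CPM in shCtrl. In each of these 3 genes shRPRD1B 1 lay under both controls and shRPRD1B 2 above both, and without shRPRD1B 2 the log2 fold changes were -0.08, -0.08 and -0.20. DDX41, which is mutated in inherited myeloid leukaemia, had 132 and 119 CPM in shRPRD1B, against 139 and 129 CPM in shCtrl (log2 fold change -0.10 ± 0.12). Of 12 spliceosome partners 11 were tested and none was called, with 7 positive and 4 negative fold changes and a median of 0.16. PRPF8, which was not tested, had 6 and 4 counts in shRPRD1B, against 3 and 5 in shCtrl. The SF3B subunits SF3B3 (0.34 ± 0.14) and SF3B1 (0.33 ± 0.15) had the largest log2 fold changes.

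The mRNA export helicases DDX39A, DDX19A and DDX19B had log2 fold changes of 0.06 ± 0.11, 0.19 ± 0.12 and 0.02 ± 0.14. DDX39A is a paralogue of DDX39B, the helicase of the TREX export complex, and the DDX19 pair remodels mRNA-protein particles at the nuclear pore. For DDX19A the values were 34.4 and 36.6 CPM in shRPRD1B, against 30.4 and 32.0 CPM in shCtrl, with both knockdown libraries above both controls. DDX19B, at 18.6 and 18.2 CPM in shRPRD1B, against 18.7 and 17.5 CPM in shCtrl, overlapped between groups, and its value was slightly negative with upper-quartile scaling. Since reads may be shared within the pair, the sum was also fitted, 53.0 and 54.9 CPM in shRPRD1B, against 49.1 and 49.5 CPM in shCtrl (log2 fold change 0.13 ± 0.11). Of 15 TREX and export factors 13 were tested and none was called, with 6 positive and 7 negative fold changes and a median of -0.03. CHTOP, a TREX subunit, was the nearest to the threshold among them, at 203 and 231 CPM in shRPRD1B, against 179.5 and 181 CPM in shCtrl (0.27 ± 0.12).

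DDX5 and DDX17, paralogues that act as transcription coregulators and in microRNA processing with DROSHA and DGCR8, were the most abundant members in CPM. DDX5 had 725 and 820.1 CPM in shRPRD1B, against 660.5 and 658 CPM in shCtrl. DDX17 had 949 and 1154 CPM in shRPRD1B, against 894 and 929.9 CPM in shCtrl. For both genes the knockdown libraries lay above the controls, with shRPRD1B 2 the higher. The log2 fold changes were 0.23 ± 0.12 for DDX5 and 0.20 ± 0.14 for DDX17, with adjusted p of 0.702 and 0.739 (edgeR's quasi-likelihood test, Benjamini-Hochberg adjusted). DGCR8 and DROSHA had log2 fold changes of 0.23 ± 0.13 and 0.19 ± 0.18.

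DDX6, a translational repressor and decapping activator of P-bodies, had the largest positive fold change of the tested members and also the largest spread between knockdown libraries among members of at least 1 CPM. DDX6 had 125 and 185 CPM in shRPRD1B, against 112 and 129 CPM in shCtrl. Only shRPRD1B 2 stood above both controls, and the libraries of shRPRD1B differed 1.48-fold. The log2 fold change of DDX6 was 0.36 ± 0.21 (adjusted p = 0.716 by edgeR's quasi-likelihood test, Benjamini-Hochberg adjusted), and 0.05 without shRPRD1B 2. Its 12 partners in decapping and deadenylation were tested, with 9 positive and 3 negative fold changes, a median of 0.17 and no call. The libraries of each group stood far apart for LSM14A, at 1.43 and 58.7 CPM in shRPRD1B, against 24.3 and 1.62 CPM in shCtrl (1.21 ± 1.84). The same held for DCP1B, at 3.94 and 0.328 CPM in shRPRD1B, against 8.19 and 0.411 CPM in shCtrl (-0.95 ± 1.47). LSM14B, which binds DDX6, had 71.9 and 84.6 CPM in shRPRD1B, against 63.7 and 57.9 CPM in shCtrl (0.36 ± 0.13, adjusted p = 0.657 in the same test). The deadenylase CNOT7 went the other way, with 71.0 and 84.0 CPM in shRPRD1B, against 94.5 and 97.2 CPM in shCtrl (-0.31 ± 0.13).

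DDX20, a subunit of the SMN complex that assembles splicing snRNPs, had 71.8 and 90.8 CPM in shRPRD1B, against 68.4 and 69.3 CPM in shCtrl (log2 fold change 0.24 ± 0.15). Of 7 other SMN complex genes 4 had positive and 3 negative fold changes, with no call, and GEMIN5, which recognises snRNAs, had the smallest p (138 and 176 CPM in shRPRD1B, against 121 and 119.8 CPM in shCtrl; 0.38 ± 0.15). DDX1, a subunit of the tRNA ligase complex, had 269 and 302 CPM in shRPRD1B, against 256 and 258 CPM in shCtrl (0.15 ± 0.11). In both genes the knockdown libraries stood above the controls without passing the threshold. The 6 other genes of the tRNA ligase list gave 4 positive and 2 negative fold changes and no call, the smallest p being that of ZBTB8OS, the cofactor archease (-0.28 ± 0.13). DDX59, linked to ciliary signalling, had 22.0 and 20.7 CPM in shRPRD1B, against 19.4 and 22.2 CPM in shCtrl (0.04 ± 0.14).

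Ribosome assembly takes the largest share of the family, 14 genes, all tested, and it holds the called gene DDX24. Of the 14, 8 had positive and 6 negative fold changes with a median of 0.01 on the log2 scale; DDX10, DDX50 and DDX54 stood so near 0 that their sign changed with the scaling or filter. DDX49, known for pre-rRNA processing, came closest to the threshold after DDX24 within this group (ENSG00000105671.12, chromosome 19, 18919675 to 18928633). It had 118 and 107 CPM in shRPRD1B, against 148 and 132 CPM in shCtrl. Its knockdown libraries both lay under its controls, while the controls themselves differed by more than DDX49's nearest values across groups. The log2 fold change of DDX49 was -0.31 ± 0.12, with an unadjusted p of 0.0466 and an adjusted p of 0.664 (edgeR's quasi-likelihood test, Benjamini-Hochberg adjusted). DDX56, a nucleolar helicase of the large subunit, had 169 and 169 CPM in shRPRD1B, against 193 and 187 CPM in shCtrl (-0.17 ± 0.10). DDX55, also of the large subunit, had 69.2 and 68.5 CPM in shRPRD1B, against 71.9 and 73.1 CPM in shCtrl (-0.07 ± 0.11). Both genes had both knockdown libraries under both controls, by less than the threshold requires.

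For several assembly helicases the knockdown libraries lay on opposite sides of the controls. DDX21, a nucleolar helicase that also binds rRNA genes, had 463 and 618 CPM in shRPRD1B, against 493 and 500.3 CPM in shCtrl (log2 fold change 0.12 ± 0.16). DDX18 had 189 and 246 CPM in shRPRD1B, against 205 and 207 CPM in shCtrl (0.08 ± 0.15), and DDX27 had 118 and 152 CPM, against 120.2 and 118 CPM (0.18 ± 0.15). In each of these 3, shRPRD1B 1 lay under both controls and shRPRD1B 2 above both, and without shRPRD1B 2 the values were -0.10, -0.12 and -0.01. DDX31 (0.07 ± 0.16) and DDX10 (0.00 ± 0.16) had the same order of libraries, DDX10 with 62.1 and 81.5 CPM in shRPRD1B, against 70.0 and 73.7 CPM in shCtrl. DDX54 and DDX50 had log2 fold changes of 0.01 ± 0.11 each. DDX52 had the largest spread between controls among members of at least 1 CPM, with 31.2 and 39.0 CPM in shRPRD1B, against 24.7 and 37.6 CPM in shCtrl (0.17 ± 0.23, and -0.10 without shCtrl 1). Among 34 other assembly factors without helicase activity 33 were tested, 18 with positive and 15 with negative fold changes, a median of 0.01 and no call. NOC3L (0.25 ± 0.11) and NOP16 (-0.23 ± 0.11) had the smallest p.

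DDX28, which assembles the mitochondrial ribosome, had 42.1 and 36.0 CPM in shRPRD1B, against 50.1 and 48.6 CPM in shCtrl (ENSG00000182810.7, minus strand of chromosome 16, 68021274 to 68023442). Both knockdown libraries lay under both controls. The group means were 39.0 ± 4.31 CPM in shRPRD1B and 49.4 ± 1.04 CPM in shCtrl (SD, n = 2 each). DDX28's log2 fold change was -0.34 ± 0.13, with an unadjusted p of 0.0434 and an adjusted p of 0.660 (edgeR's quasi-likelihood test, Benjamini-Hochberg adjusted). Exons of DUS2, a gene picked after its values were seen, overlap 487 of the 2169 exon bases of DDX28. DUS2 stood at 19.5 and 19.2 CPM in shRPRD1B, against 24.6 and 22.9 CPM in shCtrl (log2 fold change -0.30). Its shRPRD1B libraries both lay under both shCtrl libraries, as for 20.6% of all genes tested. The strand setting of the counting is not given in the sources used here, so reads in that overlap cannot be assigned to one of these genes.

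**Figure D3:**
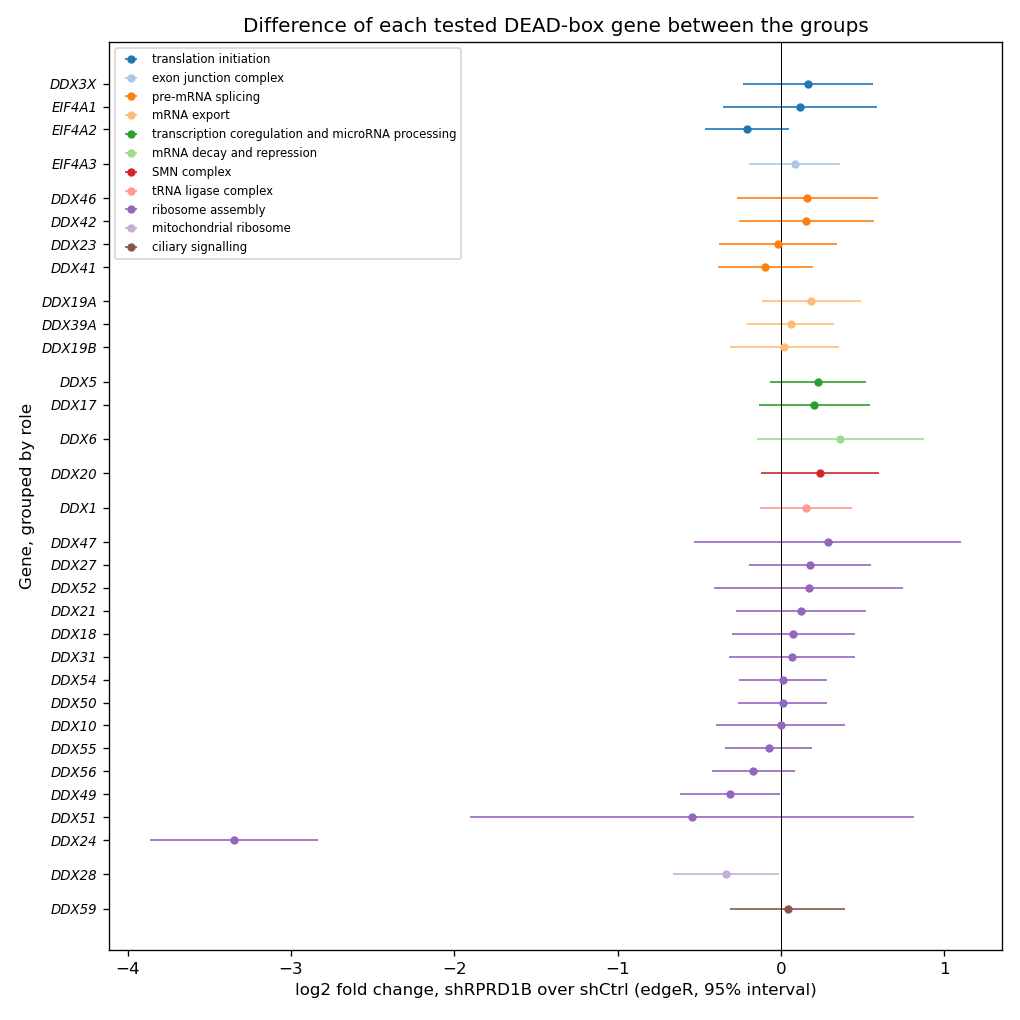
Fitted log2 fold change (shRPRD1B over shCtrl) of the 32 tested members with its 95% interval, grouped by role. DDX24 stands at -3.35, far from all others, while the intervals of DDX49 and DDX28 end just under 0 and those of the other 29 cover 0.

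There were 3 members with almost no counts. DDX39B had 12 and 8 counts in shRPRD1B, against 7 and 2 in shCtrl, and was not tested; its readthrough gene ATP6V1G2-DDX39B was at 0 in all 4 libraries. DDX51, of large subunit assembly, had 15 and 9 counts in shRPRD1B, against 17 and 11 in shCtrl, which is 0.229 and 0.164 CPM, against 0.359 and 0.226 CPM (log2 fold change -0.54 ± 0.55). DDX47, of small subunit assembly, had 62 and 69 counts in shRPRD1B, against 46 and 40 in shCtrl (0.29 ± 0.33). A floor of 3 counts stands at 0.0458 and 0.0548 CPM in shRPRD1B, against 0.0628 and 0.0619 CPM in shCtrl, and it covers counting error only. Such counts were not limited to these members. Of the other lists, PRPF8, DHX16, SARNP and POLDIP3 were also not tested, with means of 0.0827, 0.0769, 0.120 and 0.0906 CPM. These genes were named after their values were seen. Whether the low counts reflect a low level of the transcripts was not tested. Around DDX39B, 30 of 37 protein-coding genes within 250 kb were also under 1 CPM. Around DDX47 and DDX51 only 1 of 8 and 2 of 5 were, and the median gene there had 15.5 and 89.2 CPM. Around EIF4A1 it was 21 of 34. NOC4L, a small subunit assembly factor that starts 113 bases from DDX51 and was named after its values were seen, stood at 0.137 and 0.182 CPM in shRPRD1B, against 0.0844 and 0.0616 CPM in shCtrl.

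The members differed more between the knockdown libraries than between the control libraries. The SD of the log2 ratio between the libraries of a group, over the 30 members tested at 1 CPM or more, was 0.23 in shRPRD1B and 0.14 in shCtrl. Over all 8966 genes of at least 16 CPM it was 0.39 in shRPRD1B and 0.17 in shCtrl. The median log2 ratio of the 32 tested members to the shCtrl mean was -0.03 in shRPRD1B 1 and 0.20 in shRPRD1B 2. In shRPRD1B 2, 20 tested members lay above both controls and 10 below, beside 41.7% and 42.5% of all genes tested. In shRPRD1B 1 it was 8 above and 15 below, beside 38.6% and 38.5%. DDX5 and DDX19A were above in both libraries, and EIF4A2 and DDX56 were below in both by nearly the same amount. The median log2 fold change of the tested members was 0.20 with shRPRD1B 1 left out and -0.03 with shRPRD1B 2 left out. In both fits the lone knockdown library is assumed to vary like the controls. Both also use the same control libraries, so they are not independent of each other.

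The ratio between the knockdown libraries went with transcript length. Over the 30 members tested at 1 CPM or more, the log2 ratio of shRPRD1B 2 to shRPRD1B 1 had a Pearson r of 0.65 with log2 transcript length and a Spearman rho of 0.64 with length, and a rho of -0.57 with GC content. All points come from the same 2 libraries, so this is a description. Over 8913 genes of at least 16 CPM the values were 0.45, 0.49 and -0.45. The 15 members with lower GC content had a median log2 ratio of shRPRD1B 2 to shRPRD1B 1 of 0.32, against 0.09 in the 15 with higher GC content. The transcripts used for DDX6 and DDX3X are 6152 and 6907 bases long with 40.0% and 42.2% GC, while those of DDX49 and DDX28 are 1830 and 2169 bases long with 62.0% and 58.4% GC. When each library was corrected for the length and GC content of transcripts, an alternative chosen after the data had been seen, DDX24 stayed called at -3.43, DDX49 stood at -0.20 and DDX28 at -0.28. What part length and GC content have in the other differences was not tested.

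**Figure D4:**
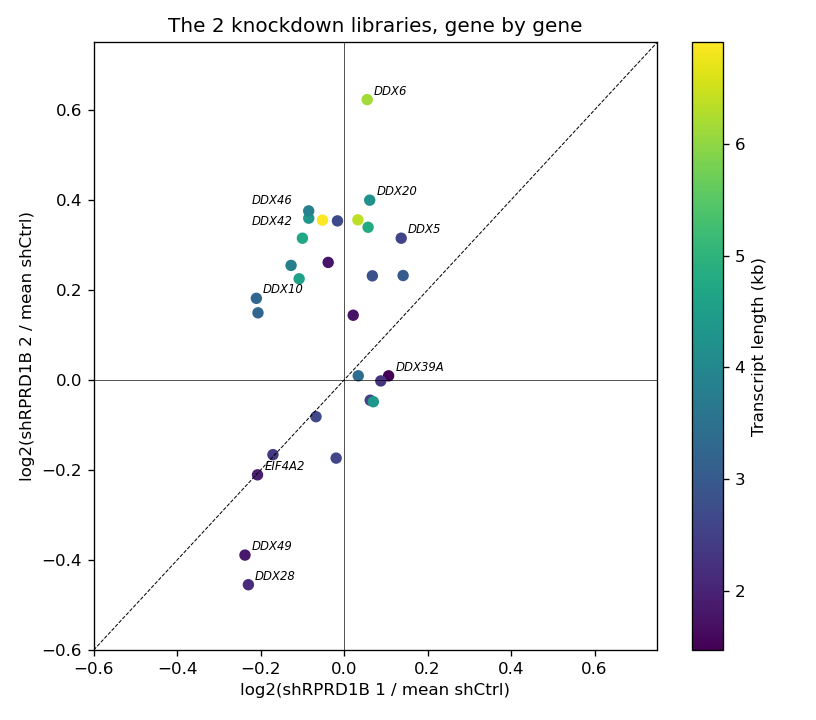
Log2 ratio of shRPRD1B 1 (horizontal axis) and shRPRD1B 2 (vertical axis) to the shCtrl mean for tested members of at least 1 CPM other than DDX24, coloured by transcript length; the dashed line is equality. Most long transcripts lie above the line, DDX6 at 0.06 and 0.62, while DDX49 and DDX28 are below 0 on both axes.

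No tested helicase of the related families was called. Of 15 DEAH-box genes 14 were tested, with 8 positive and 6 negative fold changes, a median of 0.08 and no call, and shRPRD1B 2 was above shRPRD1B 1 in 13 of the 14. For the DEAD-box members this was so in 21 of 32 (65.6%), for all genes tested in 49.6%, and for those of at least 16 CPM in 55.6%. DHX29, a translation initiation helicase, had 43.8 and 62.7 CPM in shRPRD1B, against 70.2 and 70.8 CPM in shCtrl (log2 fold change -0.41 ± 0.19), and DHX33 had 105 and 129.7 CPM, against 90.7 and 102 CPM (0.29 ± 0.15). Of 12 Ski2-like and other RNA helicases, all tested, 10 had positive and 2 negative fold changes, with a median of 0.17 and no call. AQR, a spliceosomal helicase, had 54.2 and 71.0 CPM in shRPRD1B, against 48.8 and 47.1 CPM in shCtrl (0.38 ± 0.16). SKIC2, the helicase of the cytoplasmic exosome's Ski complex, varied most, with 15.8 and 1.59 CPM in shRPRD1B, against 0.0422 and 1.85 CPM in shCtrl, so the libraries of each group stood far apart.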

How the data were processed

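The authors deposited raw read counts by gene, with a file for each sample. Per the submitters' processing notes, Trim Galore, HISAT2, featureCounts and hg38 were used; of versions, annotation release, strand setting and multi-mapped reads nothing is stated in those sources. Per the labels' protocols, libraries were made from poly(A) RNA at a service provider. Members were matched by symbol, 33 of 33. The members and lists were chosen with earlier results of these data known.

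Counts were tested with edgeR 4.0.16 in R 4.3.3 (quasi-likelihood fit, robust, TMM, filterByExpr with a minimum count of 10, group as the only term), with Benjamini-Hochberg adjustment over 20319 genes and a threshold of 0.05. Ratios of single libraries used a prior count of 2. With groups of 2, an exact two-sided permutation p cannot go under 0.333. Library pairs were not duplicates (chi-square per degree of freedom 203 in shRPRD1B and 11.8 in shCtrl, over 8966 genes). Every member was named; library values were given for called members, those at an unadjusted p under 0.05, and low ones, and for others where useful; from each list, up to 4 genes with the smallest p. Alternatives used DESeq2 1.42.0, limma 3.58.1 and mgcv 1.9.3. The fit was tested on simulated counts. Transcripts came from GENCODE 29, promoters from RefSeq (GRCh38.p14).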

Additional observations from a re-analysis of the deposited data

How the results depend on the processing

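DDX24 kept its direction in every alternative run and was called in all but limma voom (-3.35, adjusted p = 0.0617) and the filter of at least 5 CPM in 2 libraries (-3.36, adjusted p = 0.0552), where 0 members were called. Genes called higher and lower were 126 and 114 with DESeq2, 0 and 0 with limma voom and with the 5 CPM filter, 23 and 17 with no filter, 85 and 56 with the replicate number as a block, 16 and 21 with the length and GC correction, and 4 and 3 with edgeR's older fit. Whether same-numbered libraries are paired cannot be decided from 2 libraries per group (correlation of same-numbered deviations 0.209 over 8966 genes). The block changed no member's call. RPRD1B passed with DESeq2 (-0.68, adjusted p = 0.0467).

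Leaving out each library in turn, genes called ran from 12 to 3139 higher and 36 to 3096 lower, members called from 0 to 11 higher and 1 to 4 lower, and RPRD1B from -0.88 to -0.50; the lone library of a group was assumed to vary like the other group. Log2 fold changes that changed sign ran from -0.037 to 0.26 (EIF4A1), -0.00077 to 0.31 (EIF4A1 with SENP3-EIF4A1), -0.049 to 0.36 (DDX3X), -0.20 to 0.15 (DDX23), -0.082 to 0.36 (DDX42), -0.084 to 0.38 (DDX46), -0.027 to 0.071 (DDX19B), -0.21 to 0.18 (DDX10), -0.12 to 0.26 (DDX18), -0.10 to 0.32 (DDX21), -0.072 to 0.27 (DDX21 with DDX50), -0.013 to 0.36 (DDX27), -0.11 to 0.23 (DDX31), -0.043 to 0.065 (DDX50), -0.10 to 0.51 (DDX52), -0.046 to 0.073 (DDX54) and -0.052 to 0.14 (DDX59).

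Members near 0 also changed sign with the scaling or filter: DDX10 to 6.9e-05 (DESeq2's size factors), 0.0013 (library size alone), 0.00037 (DESeq2) and 0.0016 (no filter); with upper-quartile factors DDX19B to -0.0046, DDX50 to -0.015 and DDX54 to -0.013; DDX50 to -0.00067 (5 CPM filter); and with the length and GC correction DDX19B to -0.0076 and DDX54 to -0.0048. The cause was not tested. Counts limit DDX39B, which was not tested, and DDX51 and DDX47, whose fold changes had the largest SEs of the tested members (0.55 and 0.33 on the log2 scale).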

Other observations

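The 3′ UTR of the transcript used held the letters ACTAGC in 6 of the 32 tested members (18.8%), EIF4A2, DDX3X, DDX19B, DDX31, DDX51 and DDX52, beside 14.4% of 14073 tested genes with a 3′ UTR. The letters came from earlier results on these data, so the values are a description. Members with them had a median log2 fold change of 0.04 and those without 0.08. DDX24 did not hold them.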
